A study of Bos taurus and Bos indicus with 6 samples.

Results

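The genes described here make and load MHC class I molecules, and they were measured in circulating white blood cells of cattle heavily infested with Rhipicephalus microplus, the cattle tick. They were taken by gene symbol from the annotation of the array's probe sets. The symbols were the heavy chain genes BOLA, BoLA, BOLA-N and BOLA-NC1, the light chain gene B2M, the peptide transporter genes TAP1 and TAP2, and the loading chaperone genes TAPBP, CALR and PDIA3. A probe set, the group of short probes that stands for a transcript, was a member when its only symbol was one of these 10. The rule gave 11 of the 24016 tested probe sets, for 9 of the 9155 genes with a probe set of their own. BOLA-NC1 had none, because its symbol occurs only beside other symbols. Each of the 3 Brahman (Bos indicus) and 3 Holstein (Bos taurus) animals, all female and 6 months old, was measured on its own array. The white cells of jugular blood were neither sorted nor cultured, and every animal of both breeds carried ticks, so a difference that exists without ticks is part of each value. The comparison asks how the breeds differ while infested.

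MHC class I molecules show peptides from inside the cell to CD8 T cells and to receptors on NK cells. Each consists of a polymorphic heavy chain and the invariant light chain beta-2-microglobulin, encoded by B2M. Peptides made by the proteasome are pumped into the endoplasmic reticulum by a transporter built from TAP1 and TAP2. There tapasin (TAPBP), calreticulin (CALR) and the disulfide isomerase ERp57 (PDIA3) hold the heavy chain until a peptide binds. Nearly all nucleated cells make class I, and interferon raises many genes of the pathway. In cattle, class I haplotypes carry different numbers and combinations of heavy chain genes, and the alleles differ widely in sequence. In RefSeq's annotation of ARS-UCD2.0 TAP2, TAP1 and TAPBP lie on the chromosome of the heavy chain genes, with TAP1 between the immunoproteasome genes PSMB8 and PSMB9.

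In each heavy chain probe set the animals of either breed spanned more than the breed means differed, whereas B2M hardly differed between any animals. The probe set of BOLA-N spanned 4.21 log2 units over the 6 animals, an 18.5-fold range, and that of BoLA spanned 3.10, an 8.59-fold range. None of the 11 probe sets passed the test between breeds (limma, adjusted p under 0.05), against 0.137% of all tested probe sets. None reached an unadjusted p under 0.05 either, against a background of 13.6%, and in none did the breeds separate without overlap, against 20% of all tested probe sets. The median difference, Brahman minus Holstein, was -0.05 over the members and 0.02 over all tested probe sets. In all, 7 members had lower and 4 had higher means in Brahman, where 44.5% of all tested probe sets were lower and 55.5% higher.

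**Figure D1:**
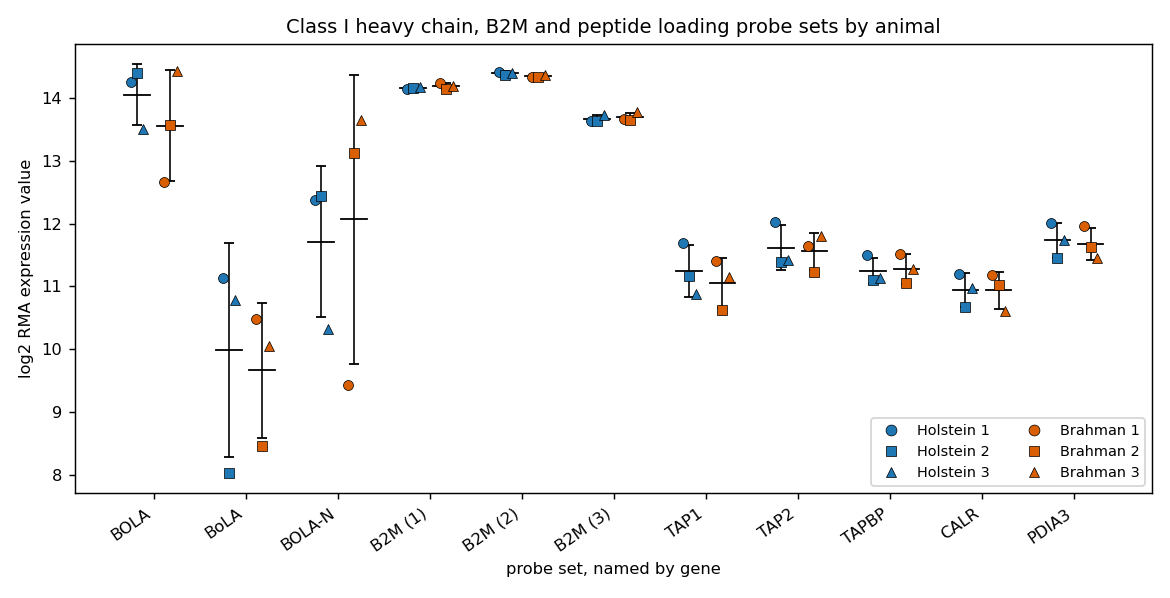
Log2 RMA value (vertical axis) of each of the 11 member probe sets (horizontal axis) in each animal; colour gives the breed, marker shape the animal number, horizontal lines the breed mean and bars 1 SD (n = 3). The 3 B2M probe sets are, from left to right, Bt.5269.1.S1_at, Bt.5269.2.S1_a_at and Bt.5269.2.S1_at. BOLA-N runs from 9.44 to 13.64 within Brahman alone, while the B2M points lie almost on top of each other.

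The BOLA-N probe set (Bt.3805.1.S1_at) carries the symbol of a class I heavy chain gene, but its Entrez identifier had no entry in RefSeq's annotation of ARS-UCD2.0. It read 12.38, 12.43 and 10.32 in Holstein 1, 2 and 3 and 9.44, 13.11 and 13.64 in Brahman 1, 2 and 3 (log2 level). Holstein 3 and Brahman 1 were low, the other animals were high, and the breeds overlapped completely, since both the lowest and the highest animal were Brahman. The means were 11.71 ± 1.20 in Holstein and 12.06 ± 2.29 in Brahman (SD, n = 3 each), a difference of 0.35 (SE 1.10, limma adjusted p = 0.925). The 95% interval of that difference, -2.22 to 2.93, is wide enough to hold large differences in either direction. Without Brahman 1 the difference was 1.67 (limma unadjusted p = 0.0364, adjusted p = 0.473), and without Brahman 2, Brahman 3 or Holstein 3 it was -0.17, -0.44 or -0.34.

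The BoLA probe set (Bt.27760.1.S1_at) belongs to a heavy chain gene that RefSeq also lists under the synonym BoLA-NC, which it gives to BOLA-NC1 as well. It read 11.14, 8.04 and 10.78 in Holstein 1, 2 and 3 and 10.49, 8.46 and 10.06 in Brahman 1, 2 and 3. The low animals were Holstein 2 and Brahman 2, thus 1 in each breed, and neither was low for BOLA-N. The breed means of 9.99 ± 1.70 and 9.67 ± 1.07 (SD, n = 3 each) differed by -0.32 (SE 0.86, 95% interval -2.32 to 1.68, limma adjusted p = 0.910). Leaving out Holstein 1, Holstein 3 or Brahman 2 turned the difference to 0.26, 0.08 or 0.29, and without Holstein 2 it was -1.29.

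The BOLA probe set (Bt.5324.1.S1_s_at) read 14.25, 14.40 and 13.50 in Holstein 1, 2 and 3 and 12.66, 13.57 and 14.43 in Brahman 1, 2 and 3. Brahman 1 stood lowest, as for BOLA-N, and Brahman 3 highest, again as for BOLA-N. The means were 14.05 ± 0.48 in Holstein and 13.56 ± 0.88 in Brahman (SD, n = 3 each). Their difference of -0.49 (SE 0.43, 95% interval -1.51 to 0.52, limma adjusted p = 0.665) was the lowest among the members. Without Brahman 3 it was -0.93 (limma unadjusted p = 0.0335, adjusted p = 0.482), and without Brahman 1 it was -0.05. The highest value in the whole table is 14.45, so the upper BOLA and B2M readings lie at the top of the scale, where a difference between animals might not be seen.

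Set against the whole array, the heavy chain probe sets were among the most variable between animals of a breed. When all 24016 tested probe sets were ordered by the SD between animals within breeds, from the highest, BOLA-N was number 9 with an SD of 1.83, BoLA number 18 with 1.42 and BOLA number 161 with 0.71. The median over all tested probe sets was 0.15. High spread was not confined to the heavy chains, since TAP1 was number 1111 with 0.40 and TAP2 number 1934 with 0.33. CALR (0.28), PDIA3 (0.27) and TAPBP (0.23) also lay above that median, and the B2M probe sets lay below it. Of the members, BOLA-N and BoLA spanned 2 log2 units or more over the 6 animals, as did 0.87% of all tested probe sets. The orders are given as a description, because the wide spread of class I genes was in view when they were computed.

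**Figure D2:**
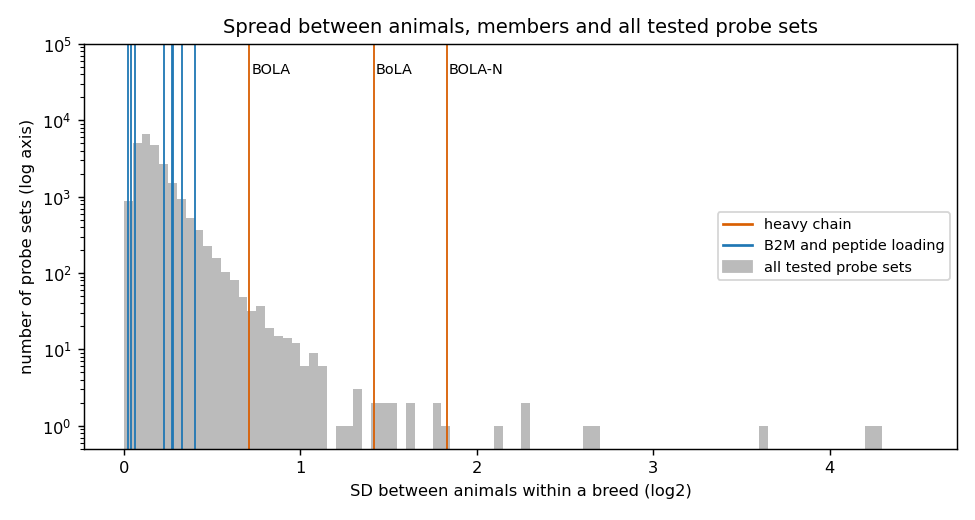
Number of tested probe sets (vertical axis, log scale) by their SD between animals within a breed (horizontal axis, log2 units), with a vertical line for each member. The 3 heavy chain lines, at 0.71, 1.42 and 1.83, stand in the right tail, and the B2M lines, at 0.02, 0.04 and 0.06, at the left edge.

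A further 20 probe sets were annotated to several class I heavy chain genes at once, 17 of them only to the heavy chain symbols named above and 3 to BOLA-N together with JSP.1, another heavy chain gene. They cannot be assigned to 1 gene and are not members, but they are described beside the single-symbol probe sets. They give no total level of class I RNA. None of the 20 reached an unadjusted p under 0.05 between breeds. In 3 of them the breeds did not overlap, beside 20% of all tested probe sets, and 1 of those 3 (Bt.29814.1.A1_at) averaged below 5.08, the lower quartile of all tested probe sets. The median difference over the 20 was 0.05.

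The multi-gene probe sets ranged from steady to strongly varying. Among the steady ones, Bt.7773.1.S1_x_at read 13.51, 13.42 and 13.62 in Holstein and 13.69, 13.63 and 13.39 in Brahman 1, 2 and 3, a 1.23-fold range. The probe set Bt.8121.1.S1_x_at read 13.50, 13.44 and 13.59 in Holstein and 13.71, 13.60 and 13.15 in Brahman 1, 2 and 3. Brahman 1, lowest of all animals for BOLA-N and BOLA, was therefore highest on both, and Brahman 3, highest for BOLA-N and BOLA, was lowest on both. These 2 probe sets lie near the top of the scale, so their narrow ranges may understate the spread between animals.

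Other multi-gene probe sets followed BoLA. The probe set Bt.29814.1.S1_at, annotated to BoLA and BOLA, read 9.23, 7.15 and 9.06 in Holstein 1, 2 and 3 and 8.97, 6.24 and 8.38 in Brahman 1, 2 and 3, a 7.98-fold range. Bt.29824.1.S1_s_at, annotated to BOLA-N and JSP.1, read 13.29, 11.05 and 12.09 in Holstein and 12.06, 11.25 and 12.51 in Brahman. In both, Holstein 2 and Brahman 2 were the low animals, as on the BoLA probe set. Over the 6 arrays Pearson's r with BoLA was 0.94 and 0.89, given as a description of 6 animals that share the normalisation. With BOLA-N, whose symbol it carries, r of Bt.29824.1.S1_s_at was -0.03.

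Another pattern set the Brahman animals apart from each other. Bt.29815.1.S1_x_at, annotated to BOLA-N, BOLA and BOLA-NC1, read 8.98, 11.45 and 7.75 in Brahman 1, 2 and 3, against 10.00, 9.75 and 10.33 in Holstein 1, 2 and 3. Its 12.9-fold range arose within Brahman, with Brahman 2 high and Brahman 3 low, and all Holstein animals lay between them. Bt.29823.1.S1_x_at read highest in the same animal, at 8.96 in Brahman 2 against 6.90 to 7.67 in the other 5. Bt.2592.1.A1_x_at was the only multi-gene probe set lower in Brahman without overlap, at 13.10, 13.22 and 12.35 against 13.36, 13.28 and 13.53 (difference -0.50, SE 0.22, limma adjusted p = 0.380). The other 2 without overlap were higher in Brahman. Bt.29823.1.A1_at read 6.34, 6.33 and 6.34 in Brahman against 6.16, 6.21 and 6.00 in Holstein (difference 0.21, SE 0.09, limma adjusted p = 0.371). For the dim Bt.29814.1.A1_at the difference was 0.18.

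**Figure D3:**
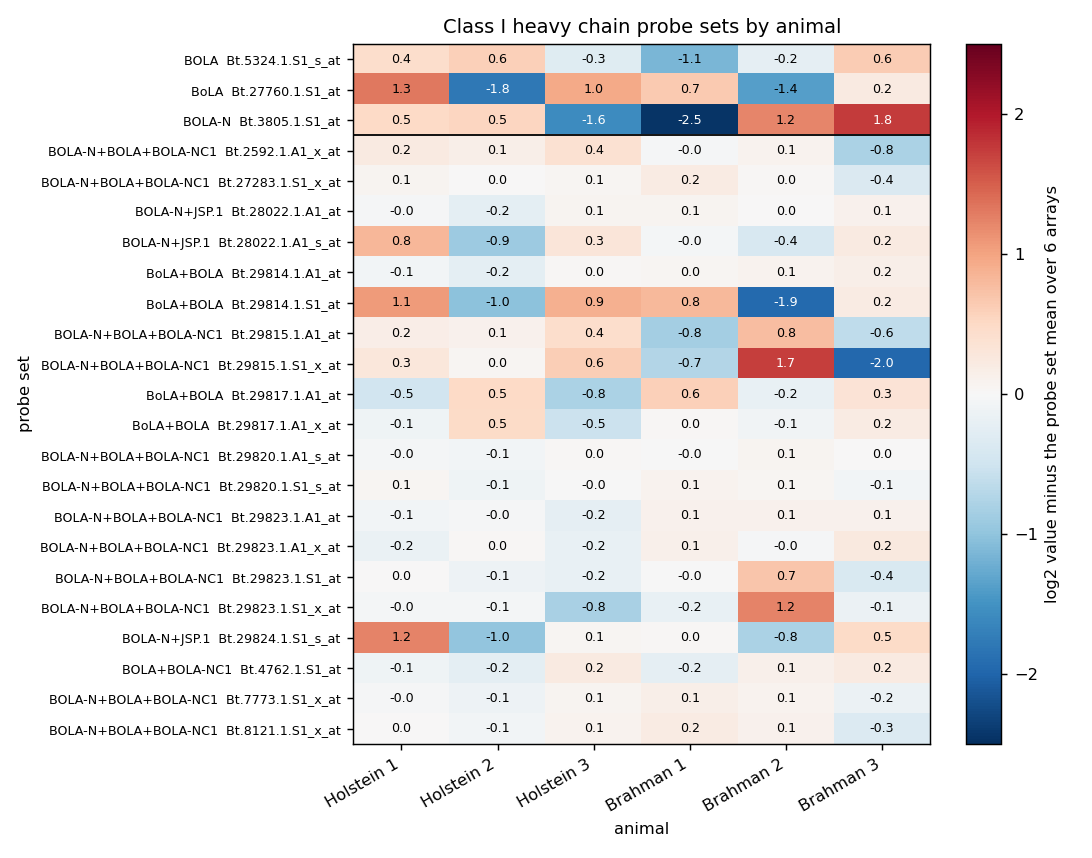
Value of each class I heavy chain probe set in each animal (columns) minus that probe set's mean over the 6 arrays, in log2 units, with red above and blue below the mean; the 3 single-symbol members are above the line and the 20 multi-gene probe sets below it. BOLA-N is lowest in Brahman 1 and BoLA in Holstein 2, while Bt.7773.1.S1_x_at stays near its mean in every animal.

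A value of a heavy chain probe set reports RNA that matches its probes. How far the probes match the alleles of each animal was not tested. In whole white cells, fewer cells of a type and less RNA per cell cannot be told apart.

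The light chain gene B2M, whose protein pairs with every class I heavy chain, was the steadiest of the members. Its probe set Bt.5269.1.S1_at read 14.14, 14.15 and 14.17 in Holstein and 14.24, 14.13 and 14.18 in Brahman 1, 2 and 3. The other probe sets read 14.33 to 14.42 (Bt.5269.2.S1_a_at) and 13.62 to 13.77 (Bt.5269.2.S1_at) over all animals. The breed differences were 0.03, -0.05 and 0.03, with 95% intervals of -0.16 to 0.22, -0.24 to 0.14 and -0.17 to 0.24, and the limma adjusted p-values ran from 0.844 to 0.912. Even the widest of the 3 ranges was 1.11-fold. These readings also lie near the top of the scale, so the narrow range may understate the spread of B2M RNA.

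The transporter genes varied less than the heavy chains, and partly in step. TAP1 (Bt.20416.1.S1_at) read 11.69, 11.17 and 10.87 in Holstein 1, 2 and 3 and 11.40, 10.63 and 11.15 in Brahman 1, 2 and 3. TAP2 (Bt.6126.1.S1_at) read 12.03, 11.39 and 11.43 in Holstein and 11.63, 11.22 and 11.81 in Brahman. Holstein 1 was highest and Brahman 2 lowest for both, so the extremes came from different breeds while the rest overlapped.

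TAP1 averaged 11.24 ± 0.41 in Holstein and 11.06 ± 0.40 in Brahman (SD, n = 3 each), a difference of -0.18 (SE 0.25, 95% interval -0.78 to 0.41, limma adjusted p = 0.798). TAP2 averaged 11.61 ± 0.36 and 11.56 ± 0.30, a difference of -0.06 (SE 0.21, 95% interval -0.56 to 0.44, limma adjusted p = 0.936). Both differences were smaller than the spread between animals of 1 breed. Over the 6 arrays Pearson's r of TAP1 was 0.86 with TAP2 and 0.87 with TAPBP, again as a description of 6 animals.

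TAPBP, which encodes the bridge between transporter and heavy chain, read 11.49, 11.10 and 11.14 in Holstein and 11.52, 11.05 and 11.27 in Brahman 1, 2 and 3 (Bt.21678.1.S1_at). The difference was 0.04 (SE 0.16, 95% interval -0.33 to 0.40, limma adjusted p = 0.949). Animal number 1 of each breed was highest, and the breeds overlapped throughout.

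The general chaperone genes gave the same picture. CALR, the gene of calreticulin, read 11.20, 10.67 and 10.97 in Holstein and 11.18, 11.02 and 10.61 in Brahman 1, 2 and 3 (Bt.7676.2.S1_a_at). PDIA3, the gene of ERp57, read 12.01, 11.45 and 11.74 in Holstein and 11.96, 11.63 and 11.45 in Brahman (Bt.2562.1.S1_at). Holstein 2 and Brahman 3 were the low animals for both genes, and for TAP2 Holstein 2 was low as well, whereas Brahman 3 was the second highest animal. The differences were -0.01 for CALR (SE 0.19, 95% interval -0.44 to 0.42) and -0.05 for PDIA3 (SE 0.18, 95% interval -0.48 to 0.37), with limma adjusted p-values of 0.990 and 0.931.

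**Figure D4:**
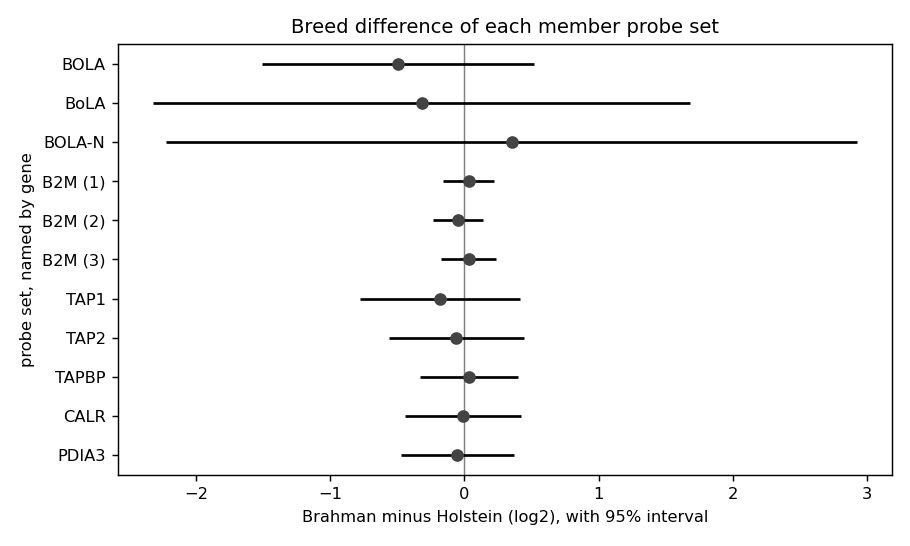
Brahman minus Holstein difference (horizontal axis, log2) of each member probe set, with points for the limma estimate and bars for its 95% interval (3 animals per breed). Every interval includes 0, and those of BoLA and BOLA-N are the widest, at -2.32 to 1.68 and -2.22 to 2.93.

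Technical measures moved with the breed. The hybridisation spike-in controls, bacterial and phage transcripts added before hybridisation, averaged 10.14 ± 0.22 on the Holstein and 9.72 ± 0.08 on the Brahman arrays without overlap (log2, SD, n = 3 each). With their level as a covariate, 3 members reached an unadjusted p under 0.05, all lower in Brahman: PDIA3 at -0.67, CALR at -0.63 and BoLA at -3.14, with limma adjusted p-values of 0.422, 0.445 and 0.440. The median over the members was then -0.32, and no probe set in the table passed the test. The actin difference between 3′ and 5′ probe sets, a measure of RNA integrity, was 1.86 ± 0.13 in Holstein and 1.69 ± 0.04 in Brahman. These values did not overlap either, but only just (Holstein 1 at 1.728, Brahman 3 at 1.722). The same difference for GAPDH was 0.05 ± 0.18 and -0.10 ± 0.03, with overlap. Because the spike-in levels of the breeds did not overlap, the fit with this covariate cannot tell their part from that of breed. The part of these measures in the results was not tested beyond this covariate.

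The list of other class I presentation genes held 58 symbols, of which 43 were measured with 57 probe sets. None of the 57 passed the test between breeds (limma, adjusted p under 0.05), and an unadjusted p under 0.05 was reached by 6 lower probe sets, against a background of 6.47%, and by 2 higher ones, against 7.12%. The median was -0.04. The 6 lower ones became 12 without Holstein 3, 4 without Brahman 2, and 3 without Holstein 1 or Brahman 3.

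Genes that generate peptides had lower means in Brahman in 7 of 8 probe sets, with a median of -0.34, where 44.5% of all tested probe sets were lower. Of these, 2 reached an unadjusted p under 0.05, against a background of 6.47%. The immunoproteasome subunit gene PSMB10 had the smallest p, at 11.24, 10.86 and 10.82 in Holstein against 10.63, 10.27 and 10.37 in Brahman (difference -0.55, SE 0.15, limma adjusted p = 0.213), with no overlap. PSMB8 and PSMB9, the neighbours of TAP1, differed by -0.30 and -0.31 with overlap and limma adjusted p-values of 0.542 and 0.487. For PSMB8, PSMB9 and TAP1 alike, Holstein 1 was the highest animal.

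Among the genes that trim peptides, the aminopeptidase gene ERAP1 had the smallest p (difference -0.37, SE 0.13, limma adjusted p = 0.294), and 3 of 3 probe sets were lower. Of 15 probe sets for folding in the endoplasmic reticulum 10 were higher and 5 lower, with a median of 0.07. ERP29, the gene of a luminal protein of that compartment, had the smallest p in that role, at 11.02, 11.20 and 10.86 in Holstein against 10.56, 10.53 and 10.50 in Brahman (difference -0.50, SE 0.11, limma adjusted p = 0.156). The breeds did not overlap for ERAP1 or ERP29.

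Of 7 probe sets for quality control and traffic 5 were lower, led by VCP, the ATPase that extracts misfolded proteins from the membrane (difference -0.32, SE 0.09, limma adjusted p = 0.230). Of 13 probe sets of transcriptional regulators none reached an unadjusted p under 0.05, and the smallest p was that of RFX5, a subunit of the factor that binds MHC promoters (difference -0.24, limma adjusted p = 0.408). Of 4 probe sets of class I-like genes and B2M partners all were lower without reaching that level, led by MR1, which presents vitamin metabolites (difference -0.33, limma adjusted p = 0.438).

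Among 7 probe sets of receptors for class I, KLRD1, the CD94 chain of an NK receptor, had the smallest p, at 6.34, 6.81 and 7.02 in Holstein against 8.08, 7.22 and 7.58 in Brahman (difference 0.90, SE 0.25, limma adjusted p = 0.216). The coreceptor genes CD8A and CD8B, which bind class I on T cells, differed by 0.24 and -0.15 with overlap between the breeds.

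**Figure D5:**
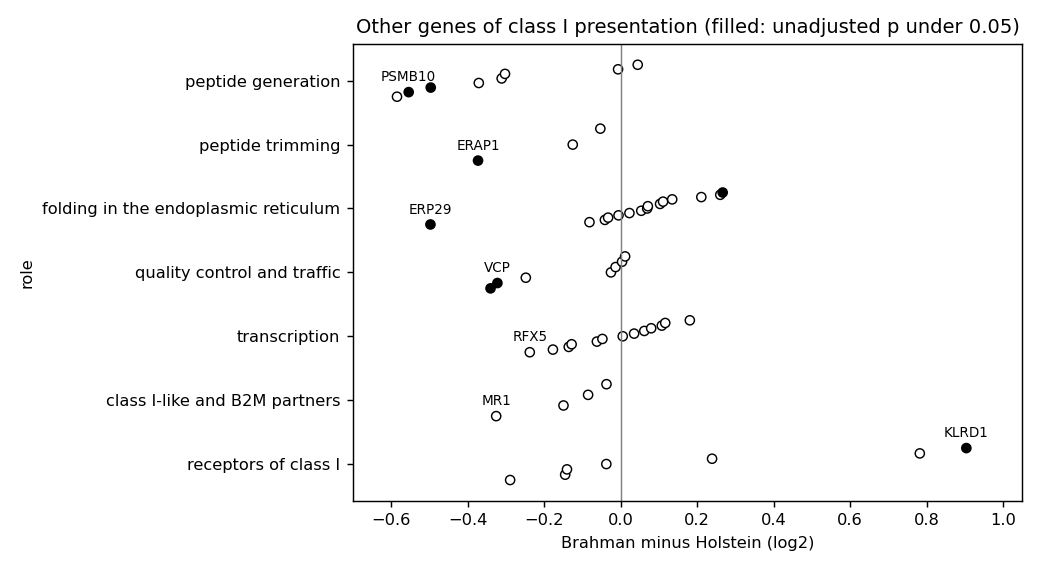
Brahman minus Holstein difference (horizontal axis, log2) of each of the 57 probe sets of other class I presentation genes, in rows by role; filled points have an unadjusted limma p under 0.05, and the gene with the smallest p in each role is named. In the peptide generation row 7 of 8 points lie left of 0, and none of the 57 passed the test after adjustment.

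Interferon targets outside the class I pathway were set beside the heavy chains animal by animal. Of 41 probe sets for such genes 39 had lower means in Brahman, against 44.5% of all tested probe sets, and none passed after adjustment (limma). An unadjusted p under 0.05 was reached by 7 lower probe sets, against a background of 6.47%, and by 1 higher, against 7.12%. The 7 became 22 without Brahman 1 and 14 without Holstein 3. The median of -0.40 moved to -0.69 without Brahman 1, -0.25 without Holstein 2 and -0.17 without Brahman 3. Their mean level was 8.49, 8.81 and 8.44 in Holstein 1, 2 and 3 and 8.72, 8.02 and 7.71 in Brahman 1, 2 and 3. Brahman 3 was lowest for interferon targets and highest for BOLA-N and BOLA. Holstein 2, highest for interferon targets, was lowest for BoLA and second highest for BOLA. Within Brahman the interferon order, with animal 1 highest and animal 3 lowest, was also that of the multi-gene probe sets Bt.7773.1.S1_x_at and Bt.8121.1.S1_x_at. Within Holstein both probe sets ran opposite to the interferon targets. They were highest in animal 3 and lowest in animal 2. Both lie near the top of the scale, and the rest of the 20 multi-gene probe sets are not set beside the interferon targets here. The part of interferon in the member values was not tested.

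The labelled white cell population was checked against marker genes of blood cell types. All 17 probe sets of T cell, 4 of B cell, 8 of NK cell, 8 of monocyte and 7 of neutrophil markers averaged at or above the lower quartile of the array, as did 5 of 8 of red cell markers. T cell markers read 8.59 to 8.73 in Holstein and 8.90 to 9.02 in Brahman without overlap, and 15 of 17 were higher in Brahman. NK cell markers read 7.48 to 7.76 in Holstein and 7.82 to 8.26 in Brahman, also without overlap, and KLRD1 is among them. Of the 8 probe sets 6 were higher, where 55.5% of all tested probe sets were. Their mean level differed by 0.38, but the median difference was 0.11. GZMB, at 2.51, had the largest difference of the 8 and weighs most in that mean. The granzyme gene GZMB was the only NK cell marker that passed the test (difference 2.51, SE 0.26, limma adjusted p = 0.0264). Its call was lost without Brahman 1, Brahman 2, Brahman 3 or Holstein 1 (limma adjusted p = 0.104, 0.133, 0.0568 and 0.110) and with the spike-in covariate (0.358). PRF1 and FCGR3A, also NK cell markers, were at -0.60 and -0.78. These T and NK cell genes and the B cell, neutrophil and monocyte genes named next were chosen after their values were seen. B cell markers averaged 11.30 ± 0.10 in Holstein and 11.40 ± 0.07 in Brahman (SD, n = 3 each), but 3 of 4 were lower (median -0.17) and BLK alone was higher, by 0.97. Neutrophil markers averaged 9.83 ± 0.13 and 10.11 ± 0.32 (SD, n = 3 each), with the 2 ALPL probe sets at 1.42 and 0.93 and the other 5 between -0.41 and 0.09. Monocyte markers averaged 8.28 ± 0.16 and 8.35 ± 0.13 (SD, n = 3 each), with 4 probe sets higher and 4 lower. Among them VCAN was at 0.92, 1.03 and 1.06 and CD14 at -0.94 and -0.67, all without overlap. The animals that stood apart for BOLA-N, Brahman 1 and Holstein 3, read 9.02 and 8.73 for T cell markers and 11.33 and 11.41 for B cell markers. The part of cell composition in the member values was not tested.

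The genes most like TAP1 and BOLA-N were sought among 10991 other named probe sets by the root mean square difference of profiles centred over the 6 arrays. For TAP1, with a range of 1.06, the nearest were FXYD6 at 0.06, RCN1 at 0.08, ITGAL and VAMP5 at 0.11 and NKG7 at 0.12 log2 units. In all 5 Holstein 1 was the highest animal, as for TAP1, which follows from their choice by likeness to its profile. For BOLA-N, with its range of 4.21, the nearest were TMSB15B at 0.77, ENPP5 at 1.02, ANO10 at 1.04, RPL32 at 1.07 and TMEM51 at 1.09. This distance grows with the range of the gene it is taken from, so the distances for TAP1 and BOLA-N cannot be set against each other.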

How the data were processed

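White cell RNA of 6 animals was measured on 1 expression array each. The authors deposited 1 log2 value per probe set and array, made with RMA per the submitters' processing notes. No version of RMA was stated. This method subtracts background, brings all arrays to 1 distribution and combines the probes of a probe set, so a global change in RNA would be removed. Of 24128 probe sets, 112 array controls were left out. A single symbol was annotated to 13292 of the tested probe sets, several symbols to 86, and 10638 were unnamed. RefSeq's genes of ARS-UCD2.0 held 9 of the 11 member probe sets by Entrez identifier. The heavy chain probe sets of BOLA and BOLA-N had no entry there, so their symbols rest on the array's annotation alone. Coordinates were used only for the order of genes on the chromosome, because no build is named for the array.

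Brahman was compared with Holstein by limma 3.58.1 in R 4.3.3 (lmFit, eBayes, breed as the only term), two-sided, with Benjamini-Hochberg adjustment over 24016 probe sets and calls at an adjusted p under 0.05. SE and 95% intervals are moderated. The fit was tested on simulated data. Members and lists were chosen with earlier results of these data known. Every member was named, and per role of the pathway list the probe set with the smallest p. Detection calls were not used here. The 3 arrays per breed limit the precision, and array pairs correlated at 0.982 to 0.991. In all 15 alternative settings were run.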

Additional observations from a re-analysis of the deposited data

How the results depend on the processing

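No member was called in any of the 15 alternative settings (limma), of which that with 1 probe set per gene held 9 of the 11, and for these uncalled differences the sign often depended on 1 array. Leaving out each array in turn gave ranges of -1.29 to 0.29 for BoLA, -0.44 to 1.67 for BOLA-N, -0.37 to 0.037 for TAP1, -0.18 to 0.15 for TAP2, -0.084 to 0.16 for TAPBP, -0.15 to 0.15 for CALR, -0.19 to 0.085 for PDIA3 and -0.0055 to 0.064 for the B2M probe set Bt.5269.2.S1_at. The members' counts at an unadjusted p under 0.05 then ran from 0 to 1 lower and 0 to 1 higher. With the spike-in covariate BOLA turned to 0.28 and TAPBP to -0.32, 3 members were lower at an unadjusted p under 0.05, and the medians were -0.32 over the members and -0.20 over the pathway list. With this covariate an unadjusted p under 0.05 was reached by 4 higher probe sets of the pathway list and by 3 lower and 0 higher ones of the interferon list, and 0 probe sets overall were called, with 2400 probe sets at an unadjusted p under 0.05. CALR was 0.0036 with array weights and 0.038 after renewed quantile normalisation, where the B2M probe set Bt.5269.2.S1_a_at was 0.0074.

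Over the whole table, 33 probe sets were called, and 5 to 55 with each array left out. With 1 probe set per gene 15 were called, 1465 reached an unadjusted p under 0.05, and in the pathway list 1 higher probe set did. Median centring gave 11 lower interferon probe sets at that level. With arrays left out, 3 to 12 lower and 1 to 3 higher probe sets of the pathway list and 5 to 22 lower ones of the interferon list reached it. The replicate block gave 10 calls and 0 member calls, and GZMB was at an adjusted p of 0.0536 (limma). Deviations of same-numbered animals from their breed means correlated at r of 0.11, -0.04 and -0.07 over the whole table. The labels name no pairing, and a correlation of deviations centred on 3 animals cannot exclude one. Without detection calls, signal over background could not be judged for dim probe sets. The cause of these changes was not tested.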
